A study of Mus musculus with 12 samples.

Results

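The 9 genes described here belong to the promyelocyte stage of neutrophil development: Mpo, Elane, Prtn3, Ctsg, Ms4a3, Nkg7, Fcnb, Cebpe and Gfi1. They were chosen by gene symbol from the 56350 genes of the count table, and each symbol matched 1 entry. All 9 had enough counts to be tested, with a lowest count of 991 (Gfi1) in any library. Gene expression was measured by RNA sequencing of total RNA from bone marrow cells of 12 mice, 1 library per mouse. The combination group received the MEK inhibitor PD0325901 (PD-901) and the cytidine analogue 5-azacitidine, a further group each received 5-azacitidine or PD-901 alone, and the last received vehicle, with 3 mice in each. Each dose of either drug was 5 mg/kg, and in 4 weeks a mouse had 20 doses of PD-901 by oral gavage, 5 doses of 5-azacitidine by intraperitoneal injection, or both. Every mouse of all 4 groups was Shp2E76K/+;LysM-Cre+ on a C57BL/6 background and 12 to 14 weeks old, and both sexes were used. The Shp2 allele is one that drives juvenile myelomonocytic leukaemia (JMML), and LysM-Cre is driven by the Lyz2 locus, so that recombination is directed to myeloid cells. No group without the allele was analysed here, so the values compare treatments within the disease model. The study asks how the MEK inhibitor acts in combination with 5-azacitidine on this leukaemia.

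Neutrophils build their granules in sequence. Promyelocytes transcribe the genes of the primary (azurophil) granules, which hold myeloperoxidase and a family of serine proteases, and switch them off as they become myelocytes, which make the secondary granule proteins. Mature neutrophils carry the primary granule enzymes but little of their mRNA. The transcription factors C/EBP epsilon and Gfi1 act at the step from promyelocyte to later stages, and PU.1 and C/EBP alpha act before it in activating the granule genes.

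The promoters of the 4 enzyme genes are shown because these enzymes make up 4 of the 5 members that rose in the combination. Each sequence is the 250 bases upstream of the gene's RefSeq start site on its own strand (GRCm38.p6). The hexamer GAGGAA, the core bound by PU.1 and other ETS factors, is in capitals. RefSeq starts differ from the GENCODE gene spans given below. By those spans the Prtn3 window lies inside the gene, and the Mpo and Elane windows lie partly inside theirs. The windows are chr11:87793534-87793783 on the plus strand for Mpo, chr10:79886062-79886311 plus for Elane, chr10:79879417-79879666 plus for Prtn3 and chr14:56102575-56102824 minus for Ctsg.
Mpo: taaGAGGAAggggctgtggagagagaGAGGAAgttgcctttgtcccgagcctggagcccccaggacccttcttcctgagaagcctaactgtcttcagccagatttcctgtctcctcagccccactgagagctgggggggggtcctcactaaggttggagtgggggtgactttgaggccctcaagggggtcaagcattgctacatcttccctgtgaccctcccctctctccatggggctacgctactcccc
Elane: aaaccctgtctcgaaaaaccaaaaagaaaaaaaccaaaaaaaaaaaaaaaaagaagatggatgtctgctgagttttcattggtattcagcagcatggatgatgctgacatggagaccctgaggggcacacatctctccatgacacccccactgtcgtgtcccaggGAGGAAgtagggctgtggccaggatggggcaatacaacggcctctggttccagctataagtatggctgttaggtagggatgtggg
Prtn3: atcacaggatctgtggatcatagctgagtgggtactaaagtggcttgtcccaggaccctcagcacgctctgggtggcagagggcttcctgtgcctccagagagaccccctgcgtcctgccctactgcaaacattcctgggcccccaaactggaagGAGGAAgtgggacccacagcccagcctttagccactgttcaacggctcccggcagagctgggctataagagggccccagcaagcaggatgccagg
Ctsg: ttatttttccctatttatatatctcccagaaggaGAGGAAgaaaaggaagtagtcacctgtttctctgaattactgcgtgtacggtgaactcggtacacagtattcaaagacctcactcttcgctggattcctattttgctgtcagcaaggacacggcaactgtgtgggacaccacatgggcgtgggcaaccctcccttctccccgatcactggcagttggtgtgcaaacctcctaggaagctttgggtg

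GAGGAA, searched on both strands, lay 247 and 224 bases upstream of the start in Mpo, 85 in Elane, 95 in Prtn3 and 216 in Ctsg. It was found in 4 of the 9 windows of the members and in 23.3% of 32851 RefSeq promoter windows of the same length. The members' windows come from 8 genes, since Gfi1 has a pair of start sites and no window was available for Cebpe, which was not searched. TATAA, counted within 40 bases of the start, stood 31 bases upstream in Elane, 32 in Prtn3 and 37 in Fcnb, so in 3 of 9 windows against 4.23% of all. TTNNGNAA, a form of the C/EBP site (reverse TTNCNNAA, both searched), was present upstream of Ms4a3, Fcnb and 1 start of Gfi1. It was found in 3 of 9 windows against 36.8% of all. None of the 4 enzyme windows held TTNNGNAA. These matches describe letters only, and binding was not measured.

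Total counts ran from 15356919 to 27148190 per library, and the 9 genes together took 0.505% to 1.06% of them. Several library properties moved with the groups. Xist, transcribed from the inactive X chromosome of females, was above 100 CPM (counts scaled to library size) in 0 of 3 combination, 1 of 3 5-azacitidine, 2 of 3 PD-901 and 3 of 3 vehicle libraries. The labels describe the mice of an experiment as matched in sex, and this pattern goes against them. The groups are given here as the labels name them. Between the combination and vehicle, Xist state, and any difference in sex that it reflects, cannot be told apart from treatment. Lyz2, the locus of the Cre, was at 44.9, 55.8 and 1149 CPM in the combination libraries, at 699 to 4178 CPM in the single-agent libraries and at 172, 147 and 3222 CPM in the vehicle libraries. Replicates 1 and 2 of the combination and of vehicle are thus the 4 libraries lowest in Lyz2. The gene is also in the list of other promyelocyte and early neutrophil genes used below. Fits without these libraries therefore select on a gene of the same lineage as the members. Neutrophil, monocyte, erythroid, B, T and NK cell markers were all detected, as bone marrow contains, with 0 markers of these lists at 0 in all libraries of a group.

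Mpo encodes myeloperoxidase, the heme enzyme that makes hypochlorous acid (chromosome 11, 87793581 to 87804413). It had 4117, 4409 and 3081 CPM in the combination libraries, 4242, 2573 and 4096 CPM with 5-azacitidine, 2364, 2552 and 3030.5 CPM with PD-901, and 2262, 2423 and 2852 CPM with vehicle. All 3 combination libraries were above all 3 vehicle libraries, and 5-azacitidine replicate 2 fell among the vehicle values. Mpo was 0.62 ± 0.20 higher in the combination than with vehicle (log2 change ± SE, 3 mice each, edgeR quasi-likelihood test, adjusted p = 0.0496).

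Elane encodes neutrophil elastase (chromosome 10, 79886247 to 79888215), a protease of the serine family. Its levels were 2026, 1672 and 1262 CPM in the combination, 1728, 1157 and 2192 CPM with 5-azacitidine, 1211, 1108 and 1140.0 CPM with PD-901, and 993, 1022 and 989 CPM with vehicle. The vehicle libraries lay close together, at 1001 ± 17.9 CPM (mean ± SD, n = 3), and every library of the other 3 groups was above them. Elane was 0.72 ± 0.21 higher in the combination than with vehicle (log2 change ± SE, edgeR adjusted p = 0.0297).

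Prtn3 encodes proteinase 3, the neighbour of elastase on chromosome 10 (79874476 to 79883174). It was at 2078, 1803 and 1095 CPM in the combination, 1822, 1217 and 2662 CPM with 5-azacitidine, 1171, 1061 and 935 CPM with PD-901, and 884, 822 and 955 CPM with vehicle. The highest library was 5-azacitidine replicate 3, and no combination or 5-azacitidine library reached down to vehicle. The combination differed from vehicle by 0.90 ± 0.25 (log2 change ± SE, edgeR adjusted p = 0.0296). Prtn3 shares 159 exon bases with Plppr3 on the opposite strand, Mpo shares 512 with Gm11505 and Gfi1 a shorter stretch with A430072P03Rik. Strand counting was not given in the sources used here, and reads from these bases cannot be told apart.

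Ctsg encodes cathepsin G, the chymotrypsin-like protease of the granule (chromosome 14, 56099881 to 56102574). It stood at 664, 675 and 397 CPM in the combination, 726, 507 and 820.1 CPM with 5-azacitidine, 296, 324 and 351 CPM with PD-901, and 241, 249 and 398 CPM with vehicle. All 3 libraries of 5-azacitidine were above all of vehicle, while combination replicate 3 and vehicle replicate 3 met at nearly the same level. Ctsg had the largest change of the 9 genes in the combination, 0.97 ± 0.24 against vehicle (log2 ± SE, edgeR adjusted p = 0.0153).

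Ms4a3, a 4-transmembrane protein whose gene marks granulocyte-monocyte progenitors, and Nkg7, a granule membrane protein best known from cytotoxic lymphocytes, followed the enzymes. Ms4a3 (chromosome 19, 11629496 to 11640851) had 283, 283 and 178 CPM in the combination, 247, 218 and 433 CPM with 5-azacitidine, 151, 156 and 151 CPM with PD-901, and 124, 137 and 154 CPM with vehicle. Its 6 libraries with 5-azacitidine were all above its 6 libraries without it. The combination was 0.84 ± 0.23 higher than vehicle (log2 ± SE, edgeR adjusted p = 0.0251). Nkg7 (chromosome 7, 43437073 to 43438249) had 146, 135 and 80.0 CPM in the combination, 121, 96.2 and 171 CPM with 5-azacitidine, 87.9, 87.6 and 81.4 CPM with PD-901, and 70.0, 78.7 and 81.0 CPM with vehicle. Combination replicate 3 fell among the vehicle values. The difference of the combination from vehicle was 0.65 ± 0.21 and missed the threshold (log2 ± SE, edgeR adjusted p = 0.0558). NK and cytotoxic lymphocyte markers, genes of cells that also transcribe Nkg7, summed to 93.5 to 123 CPM in the combination libraries and 96.6 to 157 CPM in the vehicle libraries. Of these 11 markers 0 were higher and 2 lower in the combination, and their part in the Nkg7 values was not tested.

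Fcnb encodes ficolin B, a lectin of the innate immune system made by immature myeloid cells (chromosome 2, 28076378 to 28084885). Its levels were 355, 249.6 and 295 CPM in the combination, 389, 246 and 389 CPM with 5-azacitidine, 367, 277 and 310.0 CPM with PD-901, and 390.2, 329 and 237 CPM with vehicle. The 4 groups overlapped throughout. The log2 difference between combination and vehicle was -0.09 (95% interval -0.53 to 0.35, edgeR adjusted p = 0.855).

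Cebpe and Gfi1 encode the transcription factors C/EBP epsilon and Gfi1. Cebpe (chromosome 14, 54710360 to 54712174) had 144, 149 and 171 CPM in the combination, 217, 178 and 316 CPM with 5-azacitidine, 264, 179 and 207 CPM with PD-901, and 224, 186 and 174 CPM with vehicle. The combination libraries were the lowest 3 of the 12. Against vehicle the log2 difference was -0.33 ± 0.20 SE and did not pass (edgeR adjusted p = 0.298). Gfi1, a zinc finger repressor (chromosome 5, 107716657 to 107726036), had 83.4, 99.1 and 91.4 CPM in the combination, 144, 69.1 and 129 CPM with 5-azacitidine, 72.1, 60.4 and 87.2 CPM with PD-901, and 81.5, 72.9 and 72.6 CPM with vehicle. The combination libraries were above vehicle, narrowly. The log2 difference was 0.27 ± 0.21 SE (edgeR adjusted p = 0.467).

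**Figure D1:**
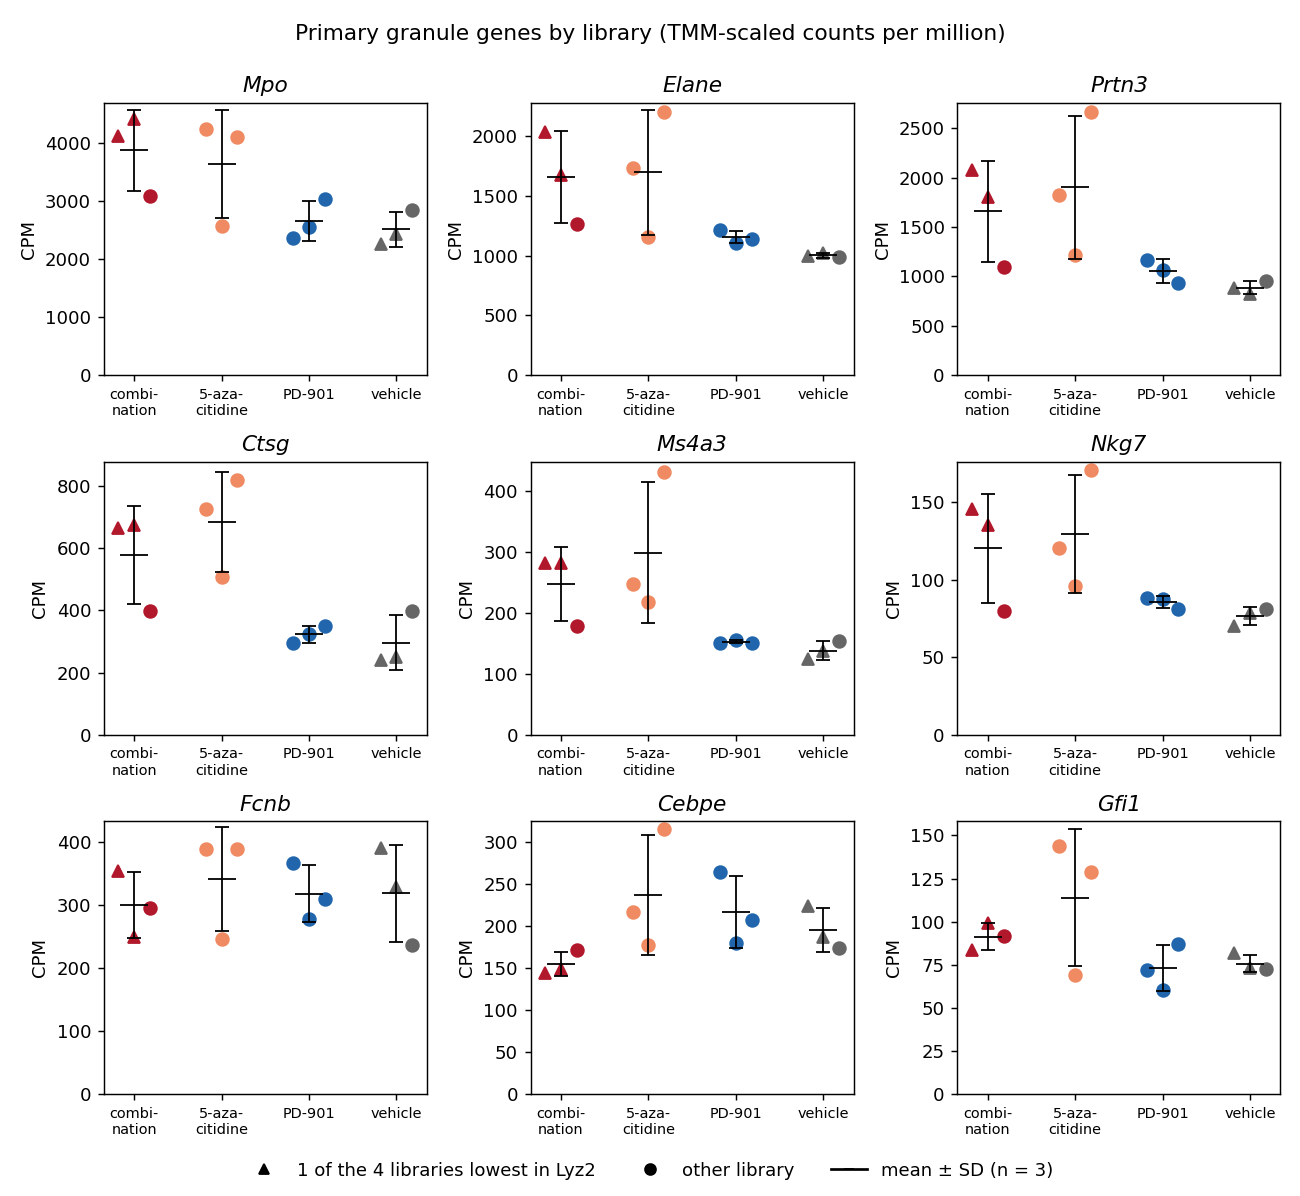
CPM of each of the 9 genes in each library (y axis), with the 4 groups along the x axis, triangles for the 4 libraries lowest in Lyz2, circles for the others and lines for the mean ± SD of 3 mice. Ms4a3 in the 6 libraries with 5-azacitidine lies above all 6 without it, and Fcnb overlaps in all groups.

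Per kilobase of exon, Elane had the highest level of the 9 genes in each group. It averaged 1681 CPM per kb in the combination and 1017 CPM per kb with vehicle. Mpo averaged 1129.9 and 734 CPM per kb in these groups, Prtn3 958 and 512, and Ctsg 560.1 and 286. With vehicle the means ± SD of these 4 genes did not overlap, and in the combination each overlapped with that of the next gene in this order. With 5-azacitidine Prtn3, at 1097 CPM per kb, stood above Mpo, at 1062 CPM per kb, within their spread. Fcnb averaged 224 CPM per kb in the combination and 238 CPM per kb with vehicle, and Ms4a3, Nkg7 and Cebpe lay between 73.4 and 191 CPM per kb in the 4 groups. Gfi1 was lowest, at 28.6 CPM per kb in the combination and 23.7 CPM per kb with vehicle.

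Against vehicle, 5 of the 9 genes rose in the combination (Mpo, Elane, Prtn3, Ctsg and Ms4a3) and 0 fell. Of all 17475 genes tested 5.78% were called higher and 7.97% lower by the same rule. The median log2 difference of the 9 was 0.65, and that of all tested genes was 0.01. In 5 genes (Mpo, Elane, Prtn3, Ms4a3 and Gfi1) every combination library was above every vehicle library, and in 1, Cebpe, every one was below, against 16.1% and 15.9% of all genes. These are bulk samples, in which more or fewer cells of a type and more or less RNA per cell cannot be told apart. The number of calls changed when single mice were left out. The count was 0 without combination replicate 1, without vehicle replicate 1 and without vehicle replicate 2, where 803, 1006 and 1499 of all genes were called, against 2403 with all libraries. It was 2 (Elane and Ctsg) without combination replicate 2, and 3 (Mpo, Ctsg and Ms4a3) without vehicle replicate 3, where 2730 and 1945 of all genes were called. It was 4, without Mpo, when any 1 of the PD-901 libraries was left out, and 6, with Nkg7, without combination replicate 3, 5-azacitidine replicate 2 or 5-azacitidine replicate 3. Of all genes the fits with 4 called 2181, 1989 and 2156, and the fits with 6 called 1039, 2279 and 2294. Without the 4 libraries lowest in Lyz2 the members' median log2 difference was 0.20 and the log2 difference of Ctsg was -0.0025. That fit has 1 combination and 1 vehicle mouse, each assumed to vary like the other groups. With Xist state as a covariate 0 of the 9 and 0 of all 17475 genes were called by edgeR. The members' median was then 0.32, and Ctsg was at 0.76 (edgeR adjusted p = 0.314). Only the 5-azacitidine and PD-901 groups hold libraries of both Xist states. The covariate's size thus comes from them, in every comparison, and is assumed to be the same in all groups.

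The next comparison was of 5-azacitidine, without MEK inhibition, with vehicle. Its log2 differences were positive for 9 of the 9 genes, with a median of 0.76, and for all tested genes the median was -0.01. edgeR called 0 of the 9, where 0.00572% of all genes were called higher, and 7 of the 9 had an unadjusted p under 0.05, as did 2673 of all 17475 genes. Ctsg was at 1.21 ± 0.24 (log2 ± SE, edgeR adjusted p = 0.0925), Ms4a3 at 1.11 (adjusted p = 0.0946) and Prtn3 at 1.10 (adjusted p = 0.118). In 5 of the 9 genes (Elane, Prtn3, Ctsg, Ms4a3 and Nkg7) every 5-azacitidine library was above every vehicle library, which held for 10.8% of all genes tested, and 0 members lay wholly below vehicle (9.77% of all). 5-azacitidine replicate 2 was the lowest of its group in 9 of 9 genes and is the group's only library with Xist above 100 CPM. Without it edgeR called 5 members (Elane, Prtn3, Ctsg, Ms4a3 and Gfi1), among 106 of all genes called. Ctsg was also called without combination replicate 2 or vehicle replicate 3, and Ctsg and Ms4a3 without combination replicate 3. Of all genes these fits called 51, 6 and 24. DESeq2 called 5 of the 9 and 583 of all 17475 genes, limma-voom 0 and 2, and edgeR with no low-count filter 7 of the 9 and 572 of 34450 genes, against 0 and 1 with the filter. Among libraries with Xist above 100 CPM, 1 mouse against 3, the members' median log2 difference was 0.22. Ctsg was at 0.79 (edgeR adjusted p = 0.678), and Cebpe, Gfi1 and Fcnb were at -0.13, -0.12 and -0.37. The lone mouse is assumed to vary like the other groups.

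With PD-901 alone the levels lay closer to vehicle. The median log2 difference of the 9 genes was 0.14. edgeR called 0 of the 9 and 0 of all tested genes, 0 of the 9 and 853 of all genes had an unadjusted p under 0.05, and DESeq2 and limma-voom called 0 of the 9. Of all genes DESeq2 called 9 and limma-voom 1. Elane and Nkg7 were above vehicle in every PD-901 library, 2 of 9 genes against 6.8% of all, and 0 were below (5.93% of all). Ctsg differed by 0.13 on the log2 scale (95% interval -0.37 to 0.63), Elane by 0.20 (-0.23 to 0.64) and Prtn3 by 0.25 (-0.29 to 0.79).

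**Figure D2:**
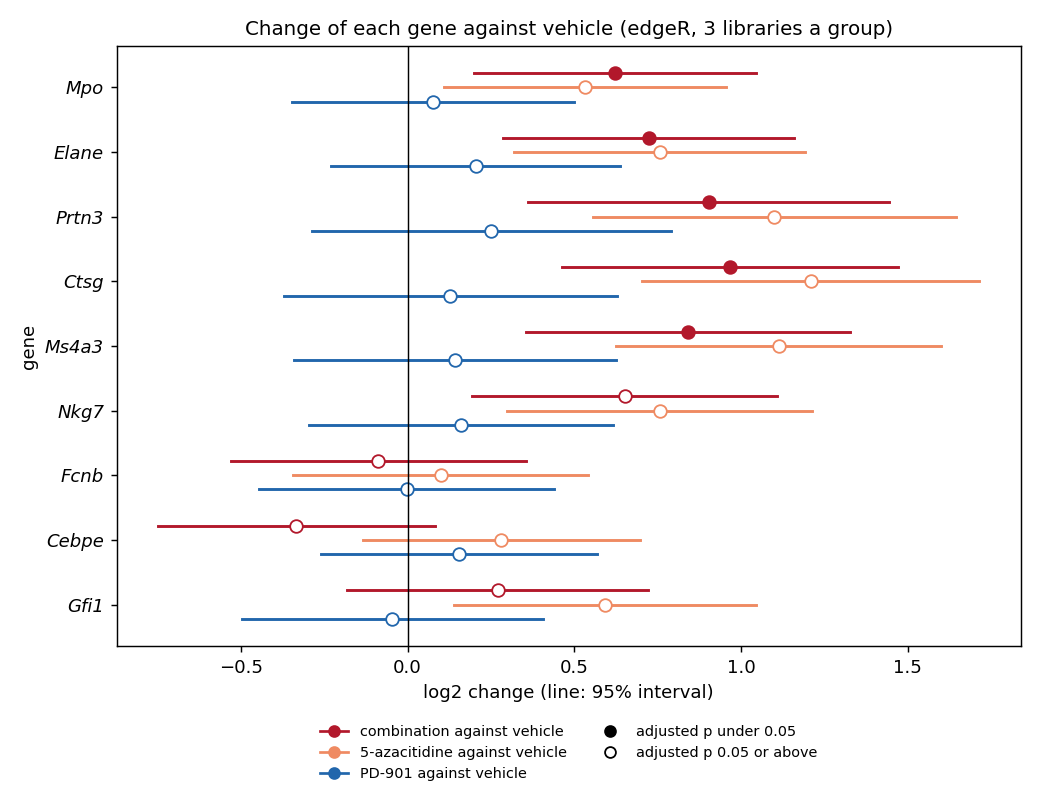
Log2 change of each gene (y axis) against vehicle on the x axis, with 95% intervals, for the combination, 5-azacitidine and PD-901. Filled points have an edgeR adjusted p under 0.05: 5 for the combination, 0 for 5-azacitidine and 0 for PD-901.

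In the combination against PD-901, which asks what 5-azacitidine adds, Ctsg was higher (log2 change 0.84 ± 0.24 SE, edgeR adjusted p = 0.0449). It was the 1 member of 9 called, where 1.69% of all genes were higher and 5.12% lower. Mpo, Elane, Prtn3, Ms4a3 and Nkg7 had log2 differences of 0.55, 0.52, 0.65, 0.70 and 0.49, each with an adjusted p of 0.0793 or more. The log2 difference of Cebpe was -0.49 ± 0.20 SE (edgeR adjusted p = 0.154). Mpo, Elane, Ctsg and Ms4a3 were above PD-901 in every combination library, 4 of 9 genes against 12.7% of all, and Cebpe was below, 1 of 9 against 15% of all. The Ctsg call was lost without combination replicate 1 or 2, 5-azacitidine replicate 1, vehicle replicate 2 or any 1 PD-901 library. Ms4a3 was called beside Ctsg without combination replicate 3 or 5-azacitidine replicate 3, where 482 and 1147 of all genes were called. Without the 4 libraries lowest in Lyz2, with 1 combination mouse left, the members' median log2 difference was 0.12 and Ctsg was at 0.29. With Xist state as a covariate Ctsg was at 0.69 and not called (edgeR adjusted p = 0.291), and Cebpe was the 1 member called, lower, at -0.82 (edgeR adjusted p = 0.0357). The covariate fit called 520 of all 17475 genes. With no low-count filter 6 members were called higher and 1, Cebpe, lower, among 1756 called of 34450 genes. Among libraries with Xist below 100 CPM, 3 mice against 1, Ctsg differed by 0.98 (edgeR adjusted p = 0.169), with the lone PD-901 mouse assumed to vary like the other groups. In the same comparison 10 of 10 B lineage markers and 10 of 12 mature neutrophil genes were lower, and 0 of each were higher. Of 19 regulators of the granulocyte lineage 6 were lower and of 10 secondary granule genes 2, with 0 of each higher. Of 27 other promyelocyte and early neutrophil genes 5 were lower and of 16 granule processing and packaging genes 3, with 0 of each higher. Of 9 basophil, mast cell and eosinophil markers 2 were lower and 0 higher. Of 11 monocyte markers 1 was lower and of 11 NK and cytotoxic lymphocyte markers 1, with 0 of each higher. Of 10 stem and progenitor markers 1 was higher and 0 were lower. The B lineage markers summed to 90.5 to 218 CPM in the combination and 587 to 688 CPM with PD-901, and the mature neutrophil genes to 1487 to 2736 CPM and 6580 to 10947 CPM. The part of these cells in the members' values was not tested.

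In the combination against 5-azacitidine, which asks what PD-901 adds, edgeR called 0 of the 9 genes and 1 had an unadjusted p under 0.05 (2756 of all genes did), where 0.252% of all genes were called higher and 1.07% lower. In the enzyme genes Mpo differed by 0.09, Elane by -0.03, Prtn3 by -0.20 and Ctsg by -0.24, all log2, with intervals that reach -0.74 for Ctsg. Cebpe had the largest difference, -0.61 ± 0.20 SE (edgeR adjusted p = 0.125), with every combination library below every 5-azacitidine library, which held for 9.53% of all genes. No member was wholly above 5-azacitidine (9.09% of all). DESeq2, edgeR with no low-count filter and edgeR with Xist state as a covariate each called 1 member lower here, Cebpe, and limma-voom called 0. Of all genes these fits called 1057 of 17475, 986 of 34450, 203 of 17475 and 174 of 17475. Between the single agents 9 of 9 genes were higher with 5-azacitidine than with PD-901, with a median log2 difference of 0.59, and edgeR called 0 of them and 0 of all genes. An unadjusted p under 0.05 was found for 7 of the 9 and 1276 of all genes, DESeq2 called 2 (Ctsg and Ms4a3) and 45 of all genes, and limma-voom 0 and 0. Prtn3, Ctsg, Ms4a3 and Nkg7 were higher in every 5-azacitidine library, 4 of 9 genes against 6.55% of all, and 0 were lower (7.16% of all). The interaction, the departure of the combination from the sum of both single effects, was called by edgeR for 0 of the 9 and 0 of all genes, and by DESeq2 and limma-voom for 0 of the 9. Of all 17475 genes DESeq2 called it for 285 and limma-voom for 4. Cebpe was the 1 member with an unadjusted p under 0.05, among 1871 of all genes, with an interaction of -0.77 ± 0.28 SE (edgeR adjusted p = 0.313).

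The 6 libraries with 5-azacitidine were also compared with the 6 without it, averaged over PD-901 and vehicle, which uses all 12 mice. This contrast was added after the data were seen. Xist state was uneven between its sides. Xist was above 100 CPM in 0 of 3 combination and 1 of 3 5-azacitidine libraries. It was above 100 CPM in 2 of 3 PD-901 and 3 of 3 vehicle libraries. Of the 9 genes 6 were higher and 0 lower, where 4.07% of all genes were higher and 6.3% lower. Ctsg rose by 1.02 ± 0.17 (log2 ± SE, adjusted p = 0.00435, edgeR), Ms4a3 by 0.91 ± 0.16 (adjusted p = 0.0052), Prtn3 by 0.88 ± 0.18, Elane by 0.64 ± 0.14, Nkg7 by 0.62 ± 0.15 and Mpo by 0.54 ± 0.14. Gfi1 was at 0.45 (edgeR adjusted p = 0.066), Fcnb at 0.01 and Cebpe at -0.10. Elane, Prtn3, Ctsg and Ms4a3 were called in all 12 fits that left out 1 library. Nkg7 was called in 10 of them, lost without combination replicate 1 or vehicle replicate 1, and Mpo in 5, lost without combination replicate 1, 5-azacitidine replicates 1 or 3, PD-901 replicates 1 or 2 or vehicle replicates 1 or 2. Gfi1 was added without 5-azacitidine replicate 2. Of all genes the 12 fits called 863 to 2323. Ms4a3 was the only member with all 6 libraries above the other 6, which held for 1.37% of all genes, and 0 had them below (1.46% of all). Without the 4 libraries lowest in Lyz2, with 1 combination and 1 vehicle mouse left, the members' median was 0.45 and Ctsg was at 0.54. With Xist state as a covariate the count was 0 (Ctsg 0.87, edgeR adjusted p = 0.14). There edgeR called 0 of all 17475 genes, against 1813 without the covariate, and the members' median was 0.37, against 0.62. Other lists moved in the same comparison. Of 27 other promyelocyte and early neutrophil genes 5 were higher and 3 lower, and of 16 granule processing and packaging genes 3 and 3. Of 10 B lineage markers 9 were lower, of 12 mature neutrophil genes 7 and of 11 monocyte markers 6, with 0 of each higher. Of 11 NK and cytotoxic lymphocyte markers 3 were lower and of 19 regulators of the granulocyte lineage 8, with 0 of each higher. Of 10 secondary granule genes 1 was lower and 0 were higher. Of 9 basophil, mast cell and eosinophil markers 2 were lower and of 10 stem and progenitor markers 1, with 0 of each higher. Of 12 erythroid markers 2 were higher and 0 lower. The part of these cells in the members' values was not tested. The same average for PD-901 called 0 of the 9 and 0 of all genes by edgeR. DESeq2 called 0 of the 9 and 313 of all genes, and limma-voom 0 and 0. By edgeR 0 of the 9 had an unadjusted p under 0.05 (2028 of all genes). In 0 of the 9 did the libraries separate, above (0.109% of all genes) or below (0.12%).

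**Figure D3:**
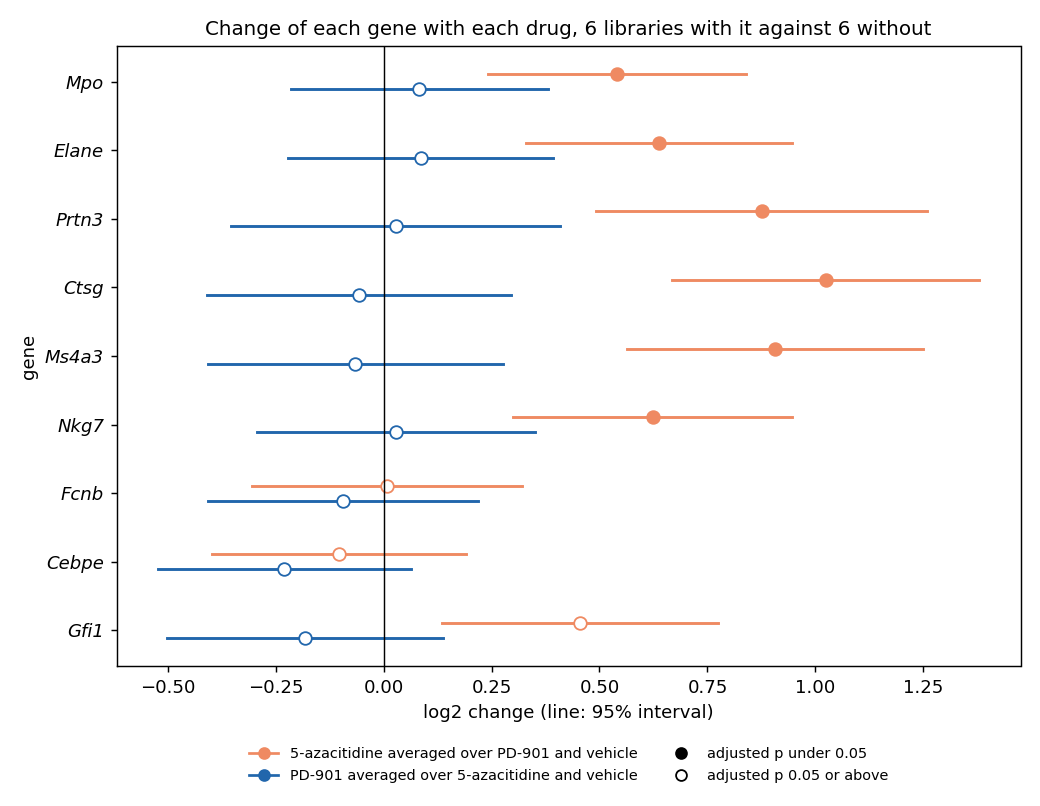
Log2 change of each gene (y axis) between the 6 libraries with a drug and the 6 without it on the x axis, with 95% intervals. For 5-azacitidine 6 genes are filled (edgeR adjusted p under 0.05) and for PD-901 0, with Cebpe and Fcnb at or near 0 for 5-azacitidine.

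A joint test for any difference among the 4 groups called 3 of the 9, Prtn3, Ctsg and Ms4a3, where 6.96% of all genes were called. It called 0 without combination replicate 1, 7 without 5-azacitidine replicate 2 and 4, with Nkg7, without combination replicate 3. Of all genes these fits called 4, 1326 and 186, against 1217 with all libraries. It called the same 3 without combination replicate 2 or 5-azacitidine replicate 3 and lost Prtn3 in each of the other 7 fits that left out 1 library.

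The 9 genes did not vary as one across mice. Mpo, Elane, Prtn3, Ctsg, Ms4a3 and Nkg7 had pairwise Pearson correlations of 0.85 to 0.98 over the 12 libraries, and of 0.69 to 0.96 after the group means were removed. Gfi1 correlated with these 6 at 0.62 to 0.77, and at 0.32 to 0.72 without the group means. Cebpe and Fcnb correlated with them at -0.14 to 0.37, and at -0.06 to 0.60 without the group means. The points share their library's scaling and cell composition, so the values describe these libraries only.

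**Figure D4:**
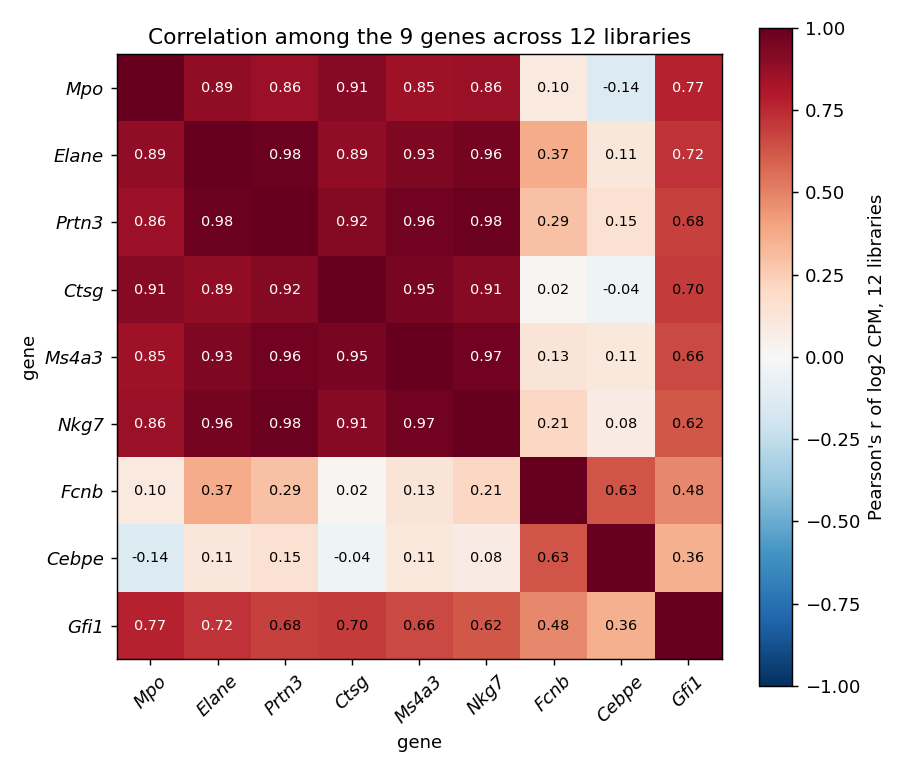
Pearson's r of log2 CPM between each pair of the 9 genes (both axes) over 12 libraries, in colour from -1 to 1. The 6 enzyme and membrane genes form 1 block of 0.85 to 0.98, with Cebpe and Fcnb outside it.

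The genes whose levels were most like the members' average over the 12 libraries, among 9963 other protein-coding genes, were Prss57 (Pearson's r = 0.97), Alas1 (0.95), Kdelr2 (0.94), Gstm1 (0.93), Ada (0.91), Cst7 (0.91), Tmem273 (0.90) and Tmem248 (0.90). Prss57 encodes a further serine protease of the primary granule, Alas1 the first enzyme of heme synthesis outside the red cell lineage, Kdelr2 a receptor that returns proteins to the endoplasmic reticulum, and Cst7 the protease inhibitor cystatin F. Prss57 averaged 61.1 CPM in the combination, 74.5 with 5-azacitidine, 47.2 with PD-901 and 37.1 with vehicle. In the combination against vehicle the log2 differences of Prss57, Alas1, Kdelr2 and Gstm1 were 0.72, 0.42, 0.40 and 0.73. These genes were chosen for their likeness over the same libraries, so the differences are a description. Prss57 lies in the same chromosome 10 cluster as Elane and Prtn3.

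Within 100 kb of the members lay 41 other tested protein-coding genes. The combination had 2 of these higher and 5 lower than vehicle, where 5.78% and 7.97% of all tested genes were called higher and lower. Prss57, near Elane and Prtn3, was higher, and Kiss1r and R3hdm4 of the same cluster were lower, with log2 changes of -1.64 and -0.95 (edgeR adjusted p = 0.0089 and 0.0046). Mcpt8, a protease gene of basophils 14608 bases from Ctsg, had a log2 change of -1.58 (adjusted p = 0.0052, edgeR). Ms4a2, the beta chain of the IgE receptor 5777 bases from Ms4a3, was at -0.98 (edgeR adjusted p = 0.039), and near Nkg7 Siglecf rose and Cd33 fell (0.84 and -1.25, adjusted p = 0.0241 and 0.0134, edgeR).

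Of 16 genes for the processing and packaging of granule proteins, 1 was higher and 3 were lower in the combination than with vehicle, with a median log2 difference of -0.15. Prss57 was the one that rose. Slpi, an inhibitor of elastase and cathepsin G, was at -1.13, Nbeal2, needed for the granules of platelets, at -1.25, and Unc13d, a priming factor for exocytosis, at -0.51 (edgeR adjusted p = 0.0067, 0.0037 and 0.0265). Slpi averaged 111 CPM in the combination and 244 CPM with vehicle. Of 19 tested regulators of the granulocyte lineage, 1 was higher and 10 were lower, with a median of -0.72. The 4 with the lowest p were Rara, Lef1, Irf8 and Spi1, at -1.24, -1.38, -1.14 and -0.78. Spi1, which encodes PU.1, had an edgeR adjusted p of 0.0074 and averaged 298 CPM in the combination and 511 CPM with vehicle. Gfi1b, the paralogue of Gfi1 in the red cell and platelet lineages, was the gene that rose (0.94, edgeR adjusted p = 0.0412), named after its value was seen.

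Other genes of promyelocytes and early neutrophils were mixed. Of 27 tested, 4 were higher and 5 lower in the combination than with vehicle, with a median of -0.07. Mcm5, Prss57, Prom1 and Cst7 were higher, at 0.58, 0.72, 0.62 and 0.60, and those lower included Ear2, Fut7, Mgst1 and Pglyrp1, at -1.46, -0.68, -0.64 and -0.77. Prom1, Cst7, Mgst1 and Pglyrp1 were named after their values were seen. With 5-azacitidine alone and with PD-901 alone, edgeR called 0 genes of these 3 lists against vehicle. In these comparisons 1 and 0 of all 17475 genes were called. With 5-azacitidine 23 of the 27 promyelocyte and early neutrophil genes had positive log2 differences and 4 negative, with a median of 0.33. PD-901 gave 16 positive and 11 negative (median 0.14). Of the 16 processing and packaging genes 9 were positive with each drug. Of the 19 lineage regulators 7 were positive with 5-azacitidine and 12 with PD-901.

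Genes of later neutrophil stages were tested in the combination against vehicle. Of 10 secondary granule genes 0 were higher and 3 lower (Mmp8, Itgb2l and Ltb4r1, named after their values were seen) while 7 did not pass, and of 12 mature neutrophil genes 0 were higher and 10 lower, with a median of -1.71. The primary granule genes reached 43.5, 39.0 and 26.6 CPM per 100 CPM of secondary granule genes in the combination, 23.1, 21.5 and 22.9 with 5-azacitidine, 13.6, 17.7 and 20.9 with PD-901, and 10.6, 14.8 and 25.4 with vehicle. All 3 combination libraries were above the other 9, with vehicle replicate 3 the nearest. The summed secondary granule level was 22723 to 25028 CPM in the combination and 29094 to 48940.0 CPM with 5-azacitidine, and both overlapped vehicle, at 49621, 35986 and 23294 CPM.

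**Figure D5:**
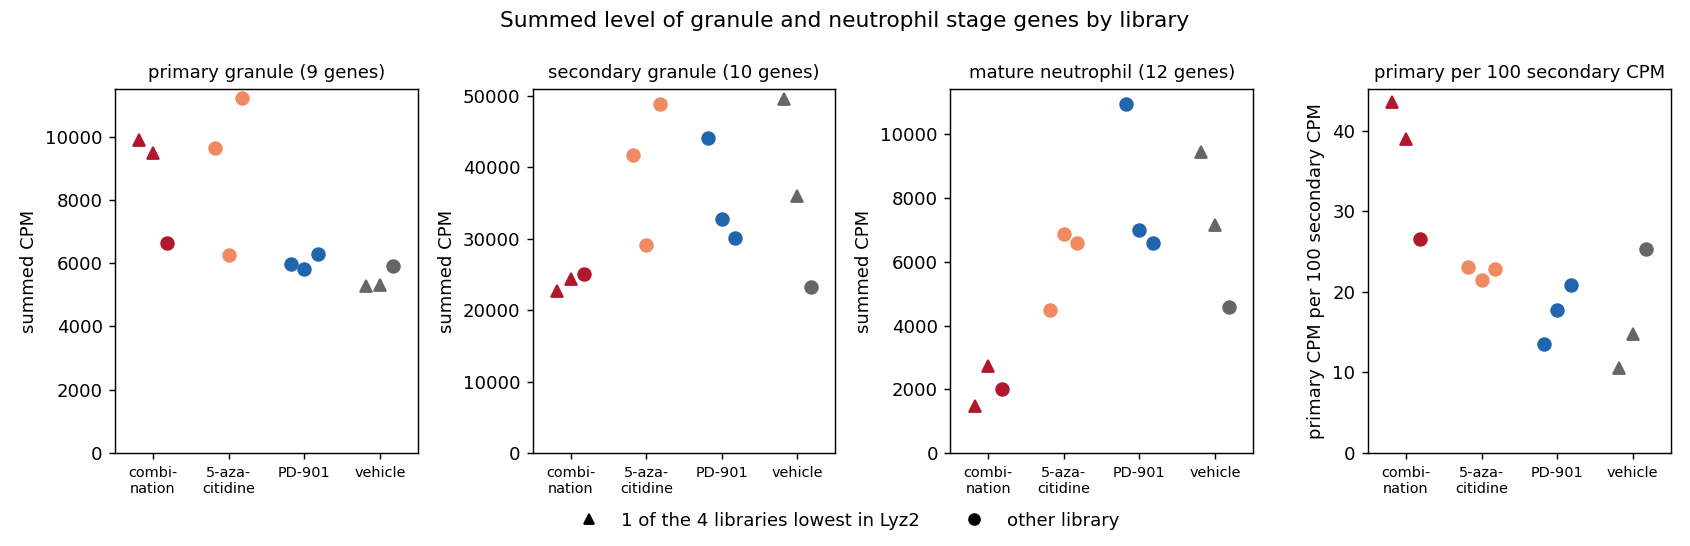
Summed CPM (y axes) of the 9 primary granule genes, 10 secondary granule genes and 12 mature neutrophil genes, and the primary per 100 secondary CPM, for each library by group. Triangles mark the 4 libraries lowest in Lyz2. The ratio is 26.6 to 43.5 in the combination and 10.6 to 25.4 with vehicle.

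Markers of other marrow cells moved with the combination as well, and their part in the members' values was not tested. Of 12 erythroid markers 12 were higher and 0 lower, with summed levels of 2306 to 7239 CPM in the combination and 1309 to 2111 CPM with vehicle. Of 10 B lineage markers 0 were higher and 9 lower (90.5 to 218 against 412 to 446 CPM), of 11 monocyte markers 0 and 6 (1825 to 3423 against 3887 to 4857 CPM), and of 9 basophil, mast cell and eosinophil markers 0 and 5 (670.1 to 871 against 1365 to 2049 CPM). Of 10 stem and progenitor markers 0 were higher and 2 lower, Gata2 and Flt3, and of 7 T cell markers 0 were called. With 5-azacitidine alone and with PD-901 alone edgeR called 0 of these markers against vehicle, where it called 1 and 0 of all 17475 genes. The log2 differences of 12 of 12 erythroid markers were positive with 5-azacitidine (median 0.77) and with PD-901 (median 0.75). Those of 11 of 11 monocyte markers were negative with each (medians -0.75 and -0.51). Of 10 B lineage markers 9 were negative with 5-azacitidine (median -0.34), and 10 were positive with PD-901 (median 0.59). Basophil, mast cell and eosinophil markers were mixed, 4 positive and 5 negative with each.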

How the data were processed

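Total RNA from bone marrow cells of 12 mice was sequenced as paired reads, per the labels. The authors deposited raw read counts per gene, 1 column per mouse. Tools listed by the submitters' processing notes are STAR 2.7.2a, Subread 1.6.5, featureCounts and bcl2fastq, and the build is mm10. Annotation release and strand setting: not given in the sources used here. Gene coordinates are from GENCODE on GRCm38 and promoters from RefSeq.

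The deposited counts went into edgeR 4.0.16 under R 4.3.3 (filterByExpr, minimum count 10 and minimum total 15; TMM; robust quasi-likelihood F test; 1 fit to 12 libraries), after the fit was tested on simulated data. Benjamini-Hochberg adjustment ran over the 17475 genes tested, at a threshold of 0.05. Tests were two-sided. CPM is TMM-scaled, and log2 CPM uses a prior count of 2. Replicates are separate mice whose numbers follow accession order and pair nothing. Libraries of a group had a chi-square per degree of freedom of 18.9 to 68.3, beyond sampling noise, and the common biological coefficient of variation was 0.328. The contrasts averaging a drug over the other, and the fits on Lyz2 and Xist, were added after the data were seen. Alternatives were DESeq2 1.42.0, limma-voom (limma 3.58.1), other size factors and filters, fits of the groups compared and leaving out each mouse.

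The 9 members and the gene lists were chosen with earlier results of these data known. All 9 members are named whatever their values. The 8 most similar genes are those with the highest correlation, at a mean of at least 5 CPM, and up to 4 genes of a pathway list are those with the lowest p in the combination against vehicle. 1 gene of these lists is not reported by name here.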

Additional observations from a re-analysis of the deposited data

How the results depend on the processing

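Across 48 results and 971 alternative values, 793 were the same (direction and side of the threshold for 1 gene, within 1.5 times for a count, which does not say that the same genes were called), 65 lost and 45 gained the threshold, 42 counts moved by over 1.5 times and 26 values changed sign. With no low-count filter the members called numbered 7 for 5-azacitidine against vehicle, 7 for the combination against PD-901, 1 for the combination against 5-azacitidine, 4 for 5-azacitidine against PD-901 and 8 in the joint test. Of the 34450 genes in that fit 572, 1756, 986, 144 and 2629 were called. With DESeq2 the members called numbered 5, 3, 1, 2 and 6, where it called 583, 2186, 1057, 45 and 2942 of all 17475 genes. For the combination against PD-901, limma-voom called 0 members and 1371 of all 17475 genes. A fit of only these groups called 2 members and 1291 of 15955 genes. In only the libraries with Xist below 100 CPM the members' median log2 difference was 0.47.

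Without the 4 libraries lowest in Lyz2, 1 combination and 1 vehicle mouse remain. The members' median log2 difference was then 0.20 for the combination against vehicle and 0.12 against PD-901. With all libraries these were 0.65 and 0.52. For 5-azacitidine the median without them was 0.59 against PD-901 and 0.45 averaged (0.59 and 0.62 with all libraries). With Xist state as a covariate the count of members called was 0 for the combination against vehicle and 1 against 5-azacitidine. It was 0 for 5-azacitidine averaged and 0 in the joint test. For the combination against PD-901 it was 1, Cebpe lower in place of Ctsg higher. Of all 17475 genes the covariate fit called 0, 203, 0, 6 and 520 in these comparisons. Leaving out 1 library gave 0 to 6 members called for the combination against vehicle, 0 to 5 for 5-azacitidine against vehicle, 0 to 2 for the combination against PD-901, 4 to 7 for 5-azacitidine averaged and 0 to 7 in the joint test. The cause was not tested.

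Signs changed without the Lyz2-lowest libraries for Ctsg (-0.0025), Nkg7 (-0.0173) and Fcnb (0.32) in the combination against vehicle, Nkg7 (-0.11) against PD-901 and Cebpe (0.0501) in the 5-azacitidine average. With Xist as a covariate they changed for Gfi1 in the combination against vehicle (-0.20) and PD-901 (-0.0146), and for Cebpe (-0.0879) and Fcnb (-0.26) in 5-azacitidine against vehicle and Fcnb averaged (-0.33). Within libraries with Xist above 100 CPM, 5-azacitidine against vehicle gave Cebpe -0.13, Gfi1 -0.12 and Fcnb -0.37. Leaving out 1 library, Fcnb ranged from -0.263 to 0.102 in the combination against vehicle, -0.224 to 0.0382 against PD-901, -0.0745 to 0.29 with 5-azacitidine against vehicle and -0.0805 to 0.11 in the average.

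No paired analysis was possible because the labels carry no replicate numbers that groups share. All 9 genes had at least 991 counts in every library, and the 3 mice a group limit the precision. Xist state and Lyz2 level were uneven across the groups.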
